A study of Rattus norvegicus with 23 samples.

Results

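The mitosis and G2/M genes are the genes whose products take a cell from the end of DNA replication through chromosome segregation and division. The set was a list of 49 gene symbols, and its members were those symbols that the deposited expression table held. Of the 49, 48 were among the 20301 genes of the table, and Cks2 was not analysed here. The values came from microglia, the resident macrophages of the brain, of Wistar rat pups of both sexes that were 7 days old at the operation. The 23 samples formed 4 groups, in each of which cells carrying CD11b/c were taken with magnetic beads 24 h after the operation. The 6 Sham samples came from pups with a neck incision only. The 5 LPS samples came from pups given 0.1 mg/kg of lipopolysaccharide, a bacterial cell wall component, into the peritoneum 4 h before the same sham operation. The 6 NaCl/HI samples came from pups injected with NaCl before hypoxia-ischemia (HI), that is ligation of the left common carotid artery followed by 50 min in 8% oxygen, and the 6 LPS/HI samples from pups given LPS before the same HI. Each Sham or LPS sample was 1 entire brain, whereas each HI sample pooled the ipsilateral hemispheres of 2 pups, so that HI cannot be told apart from the tissue taken or from pooling. No injection is listed for Sham, so LPS and Sham differ in the injection itself too, and the beads take up other CD11b/c-positive macrophages as well as microglia.

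Entry into mitosis is driven by the kinase CDK1 bound to A-type and B-type cyclins, with the Polo and Aurora kinases acting beside it. Motor proteins and microtubule-binding proteins then build the spindle, kinetochores attach chromosomes to it, and a checkpoint holds back the anaphase-promoting complex until every chromosome is attached. Most of these genes are transcribed in a wave in the G2 phase, under repressor and activator complexes that act at shared promoter elements, and their messages are scarce in resting cells. Microglia of the early postnatal brain still divide, and they can divide again on stimulation. In bulk samples such as these, more dividing cells and more message per dividing cell cannot be told apart.

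All values are log2 expression values that the authors had transformed and corrected, so they carry no read counts, and a difference of 1 is a 2-fold change on that scale. The transformation draws in the differences of weakly expressed genes, and it keeps no gene length, so levels were compared only within a gene. A difference was called where limma, fitted to all genes and all samples, gave an adjusted p under 0.05 over the 20301 genes. The labels describe the samples of a group as biological replicates. None of the 48 members was among the 25% of genes with the lowest mean values, and none shared its values with another gene. The library medians ran from 7.75 to 7.82. Microglia markers were present in every group, with group means of 16.41 to 16.50 for Csf1r, the receptor of their growth factor, and of 15.46 to 15.63 for Cx3cr1, their fractalkine receptor, while Siglech lay between -1.08 and -1.03, near the lowest value of the table. The library names were numbered in a single run from 1 to 23 in which the order of the groups repeated after 12. Libraries up to 12 and those after it are called the first and second library series here, and both held all 4 groups. The labels name no batch, so this split is read from the numbering alone. Single libraries stood apart in the members: Sham 5 was the highest Sham sample in 47 of 48 members, LPS 4 the highest LPS sample in 47, and LPS/HI 3 the highest LPS/HI sample in 45. Over all genes these 3 libraries were the highest of their group for 18.7%, 24.1% and 13.5% of genes. Counts without these 3 libraries are given beside each comparison.

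Promoter windows were searched for short elements known from cell cycle genes, and no enrichment was tested. The windows came from RefSeq on the GRCr8 build and ran from 250 bases before to 50 bases after the annotated start of each gene. A window was given for 39 of the 48 members, for 67 of 79 other mitosis genes, for 55 of 70 DNA replication and G1/S genes, and for 13939 of all genes in the expression table. Windows were not given for Ccna2, Foxm1, Pbk, Ube2c, Aurkb, Incenp, Kif14, Tpx2 and Racgap1. The cell cycle genes homology region (CHR), the element that binds the complexes controlling late cell cycle genes, was searched as TTTGAA on both strands. It was found in 27 of 39 members, or 69.2%, against 53.7% of the other mitosis genes, 14.5% of the DNA replication and G1/S genes and 13.6% of all windows. A variant of the element, TTTAAA, which reads the same on both strands, was found in 35.9% of the members, 10.4% of the other mitosis genes, 7.27% of the DNA replication and G1/S genes and 10% of all windows. In 21 of the 39 members, or 53.8%, a TTTGAA match lay within 50 bases of the start, against 35.8% of the other mitosis genes and 3.68% of all windows. The CCAAT box, which the factor NF-Y binds, was searched as CCAAT on both strands. It occurred in 69.2% of the members, 53.7% of the other mitosis genes, 60% of the DNA replication and G1/S genes and 37.4% of all windows, and 48.7% of the members held 2 or more, against 31.3% of the other mitosis genes, 34.5% of the DNA replication and G1/S genes and 12.5% of all windows. Of the 39 members, 12 lacked TTTGAA, 12 lacked CCAAT and 21 held both words. Melk held none of the elements searched and Kif18a an E2F site alone. E2F sites, searched on both strands as TTTCCCGC, TTTGGCGC, TTTCGCGC or TTTGCCGC, were found in 5.13% of the members, 41.8% of the DNA replication and G1/S genes and 3.39% of all windows. A TATA box, searched as TATAAA on both strands, was found in 2.56% of the members and 9.18% of all windows. None of these words contains another, although 2 matches can overlap in part. These are matches of letters and not measured binding.

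The promoters below are shown because they belong to members at both ends of the range described later: Ccnb2, Cdc20 and Kif22 had some of the largest differences between groups, Cdk1 and Top2a lay in the middle, and Aurka had the smallest difference from Sham in LPS. The sequences are the 250 bases before the start, written 5′ to 3′ on the strand of the gene, with TTTGAA and CCAAT matches of either strand in capitals. The positions on GRCr8 are chr8:79981659-79981908 (minus strand) for Ccnb2, chr20:19265043-19265292 (plus strand) for Cdk1, chr5:137255800-137256049 (minus strand) for Cdc20, chr1:191080879-191081128 (minus strand) for Kif22, chr10:84473094-84473343 (minus strand) for Top2a and chr3:181560770-181561019 (minus strand) for Aurka.
Ccnb2: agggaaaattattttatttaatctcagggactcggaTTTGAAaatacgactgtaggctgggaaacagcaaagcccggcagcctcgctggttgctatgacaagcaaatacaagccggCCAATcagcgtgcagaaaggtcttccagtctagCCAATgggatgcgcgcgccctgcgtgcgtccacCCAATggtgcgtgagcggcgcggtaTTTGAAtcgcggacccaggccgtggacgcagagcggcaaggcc
Cdk1: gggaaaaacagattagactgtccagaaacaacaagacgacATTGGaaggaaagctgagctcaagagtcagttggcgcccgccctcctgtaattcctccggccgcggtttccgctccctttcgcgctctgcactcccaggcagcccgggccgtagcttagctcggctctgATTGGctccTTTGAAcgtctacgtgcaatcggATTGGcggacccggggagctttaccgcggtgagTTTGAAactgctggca
Cdc20: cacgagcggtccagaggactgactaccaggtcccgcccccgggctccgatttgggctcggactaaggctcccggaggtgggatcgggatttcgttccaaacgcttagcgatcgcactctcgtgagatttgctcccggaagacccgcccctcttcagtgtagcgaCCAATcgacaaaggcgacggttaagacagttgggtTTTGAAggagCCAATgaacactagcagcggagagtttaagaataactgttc
Kif22: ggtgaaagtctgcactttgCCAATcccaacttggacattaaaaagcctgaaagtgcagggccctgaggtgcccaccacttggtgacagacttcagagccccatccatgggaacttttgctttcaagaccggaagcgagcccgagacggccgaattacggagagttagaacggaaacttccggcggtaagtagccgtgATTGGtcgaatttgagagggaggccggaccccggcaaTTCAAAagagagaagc
Top2a: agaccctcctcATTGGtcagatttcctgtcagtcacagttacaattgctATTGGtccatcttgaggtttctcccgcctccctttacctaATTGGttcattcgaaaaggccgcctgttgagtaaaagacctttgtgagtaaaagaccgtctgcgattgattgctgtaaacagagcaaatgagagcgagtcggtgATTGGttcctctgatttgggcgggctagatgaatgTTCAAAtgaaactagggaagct
Aurka: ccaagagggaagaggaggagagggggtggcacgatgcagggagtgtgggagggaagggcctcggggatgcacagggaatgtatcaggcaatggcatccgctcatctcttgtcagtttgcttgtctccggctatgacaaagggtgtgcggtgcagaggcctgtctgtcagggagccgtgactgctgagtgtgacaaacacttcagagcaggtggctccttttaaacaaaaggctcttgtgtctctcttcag

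The Ccnb2 and Cdk1 sequences each held 2 TTTGAA matches and 3 CCAAT boxes. Cdc20 and Kif22 each held 1 TTTGAA match and 2 CCAAT boxes, and Top2a held 1 TTTGAA match and 4 CCAAT boxes. The Aurka sequence held neither word, but it held the variant TTTAAA, left in lower case and centred at position -29 from the start. Kif2c, which is not shown, likewise held the variant alone, centred at position -16, and its difference between LPS and Sham was among the larger ones, 0.83.

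**Figure D1:**
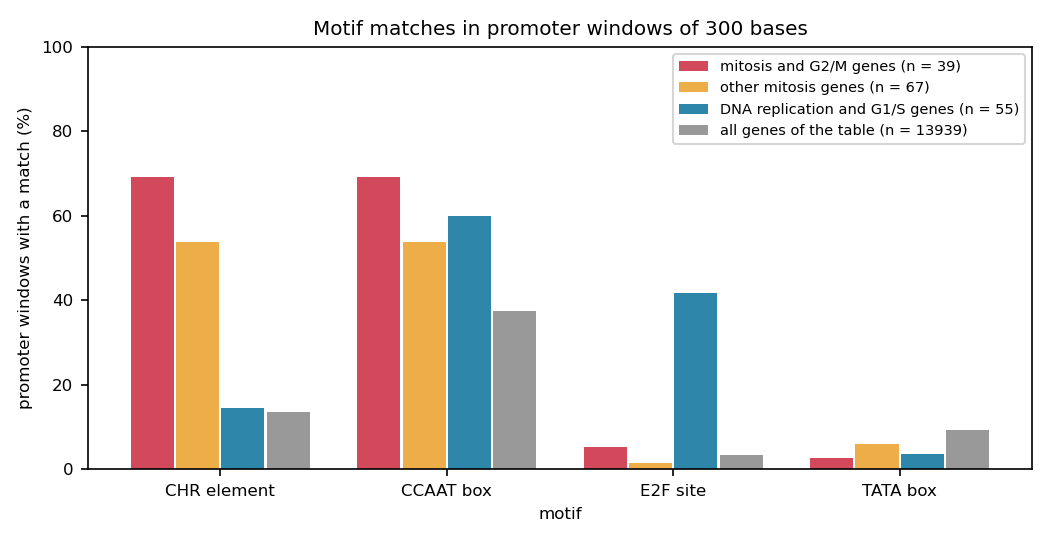
Share of promoter windows (%, y axis) with at least 1 match to each of 4 elements (x axis), for the members with a window (n = 39), other mitosis genes (n = 67), DNA replication and G1/S genes (n = 55) and all genes of the table with a window (n = 13939). The members and the other mitosis genes stand above all windows for the CHR element (69.2% and 53.7% against 13.6%), and the DNA replication and G1/S genes for the E2F site (41.8% against 3.39%).

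The group means of every member fell in the same order, lowest in Sham, then NaCl/HI, then LPS/HI, and highest in LPS. This order held in 48 of 48 members, in 73 of 79 other mitosis genes, in 27 of 70 DNA replication and G1/S genes, and in 12.4% of all genes. The mean of the 48 members was 10.14 ± 0.14 (SD, n = 6) in Sham, 10.29 ± 0.05 (n = 6) in NaCl/HI, 10.53 ± 0.10 (n = 6) in LPS/HI and 10.81 ± 0.17 (n = 5) in LPS. Relative to the Sham mean, single samples ran from -0.12 to 0.26 in Sham, from 0.08 to 0.20 in NaCl/HI, from 0.30 to 0.56 in LPS/HI and from 0.50 to 0.94 in LPS. LPS samples therefore lay above all Sham and NaCl/HI samples, whereas the highest LPS/HI sample, LPS/HI 3, overlapped the lowest LPS sample, LPS 3. In each comparison all 48 differences had the same sign, and no member changed by more than 2-fold.

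**Figure D2:**
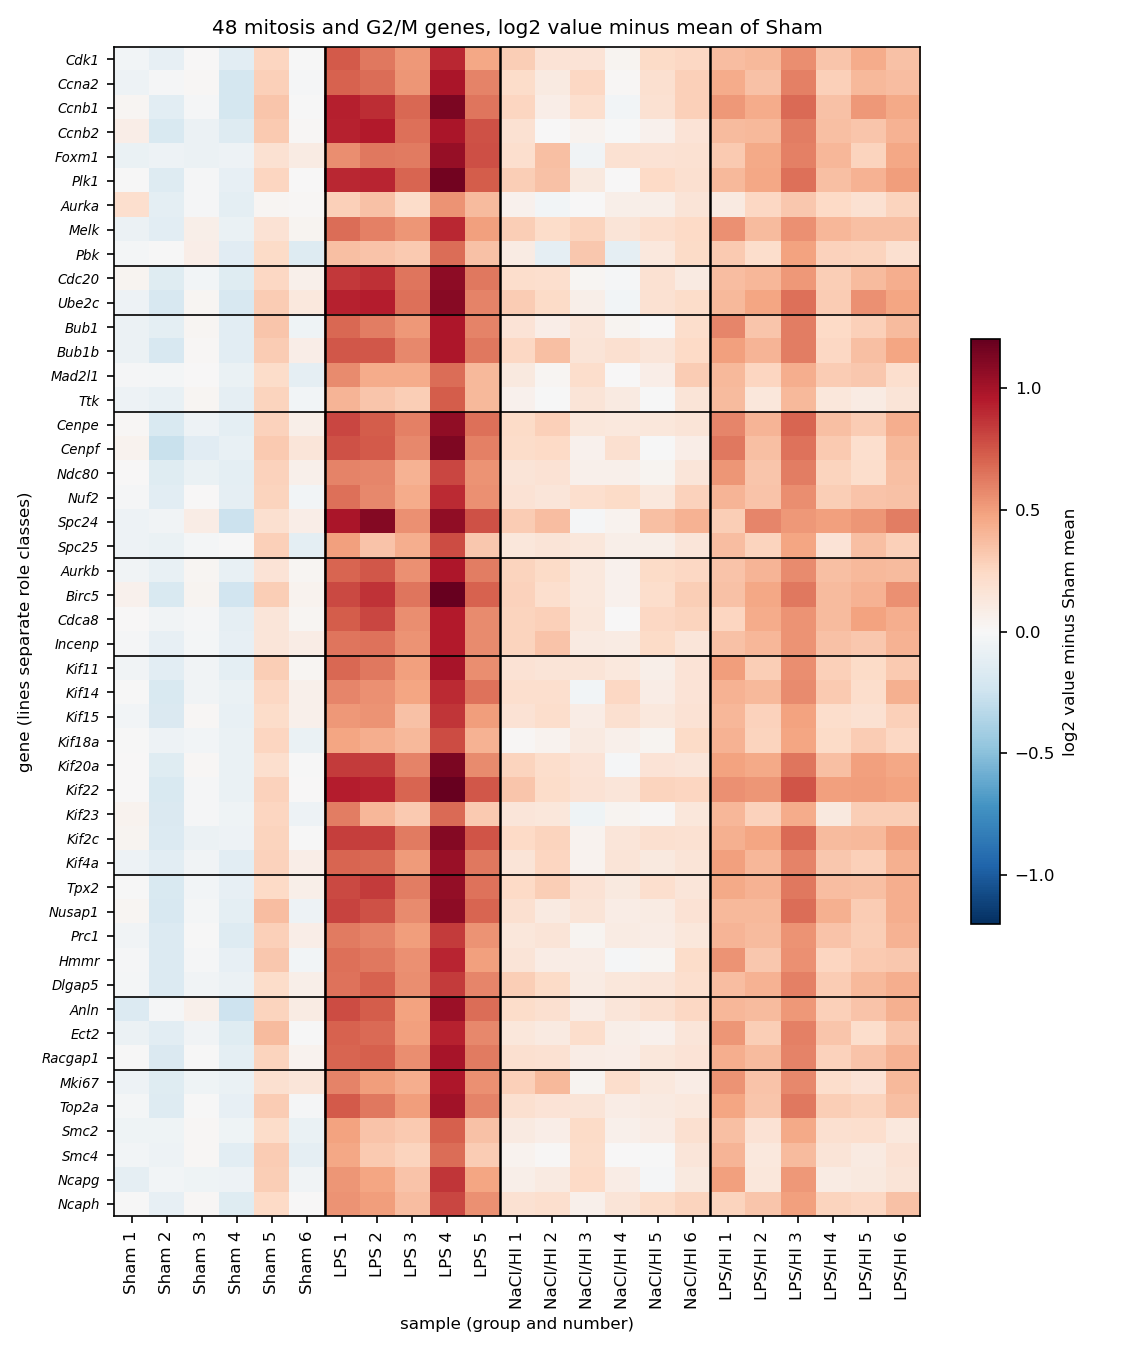
Log2 value of each of the 48 members (y axis, in role classes separated by lines) in each of the 23 samples (x axis, by group), minus the mean of the 6 Sham samples, with red above and blue below that mean. The 5 LPS columns are the darkest red, LPS 4 above all, the LPS/HI columns are intermediate, and Sham 5 stands out among the Sham columns.

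Every member was higher after LPS alone. All 48 were called higher in LPS than in Sham, against 10.2% of all genes called higher and 7.56% called lower, and the median log2 difference was 0.68 against -0.01 over all genes. The differences ran from 0.35 in Aurka to 0.90 in Kif22, with adjusted p between 8.81e-07 and 0.00313 (limma). In 47 of 48 members the 5 LPS samples lay above all 6 Sham samples, which held for 8.05% of all genes, and Smc4 was the exception. The 48 calls remained without Sham 5, LPS 4 and LPS/HI 3, where 8.85% of all genes were called in either direction. By role, the median difference was largest in the partners of the anaphase-promoting complex (0.83, 2 genes), and it was 0.72 in the chromosomal passenger complex (4 genes) and in cytokinesis (3 genes). It was 0.70 in CDK1, its cyclins and the mitotic kinases (9 genes), 0.69 in the kinetochore (6 genes), 0.68 in the kinesin motors (9 genes) and 0.67 in the spindle microtubule-binding proteins (5 genes). The spindle assembly checkpoint (0.59, 4 genes) and chromosome structure (0.54, 6 genes) had the smallest class medians.

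Among CDK1 and its cyclins, the B-type cyclins had the largest differences between LPS and Sham. Cdk1, the kinase that drives entry into mitosis, had log2 values of 10.91, 10.81, 10.70, 11.09 and 10.64 in LPS 1 to 5. Its lowest, median and highest values were 10.05, 10.16 and 10.44 in Sham, 10.22, 10.38 and 10.47 in NaCl/HI, and 10.52, 10.56 and 10.74 in LPS/HI. Both LPS groups lay above all Sham and NaCl/HI samples, and they overlapped each other. Cdk1 was higher than in Sham by 0.65 (SE 0.08, adjusted p = 4.99e-06) in LPS and by 0.41 (SE 0.07, adjusted p = 0.00286) in LPS/HI. Ccna2, cyclin A2, which binds CDK1 and its relative CDK2 before mitosis, had 10.92, 10.89, 10.75, 11.19 and 10.81 in LPS, and 10.004, 10.20 and 10.50 (lowest, median and highest) in Sham. Its values were 10.23, 10.42 and 10.50 in NaCl/HI and 10.50, 10.60 and 10.82 in LPS/HI, and only the LPS samples lay above all Sham and NaCl/HI samples. The differences of Ccna2 from Sham were 0.70 in LPS and 0.41 in LPS/HI (adjusted p = 6.12e-06 and 0.00505).

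Ccnb1, cyclin B1, the main activating partner of CDK1, had 11.18, 11.13, 10.93, 11.37 and 10.88 in LPS 1 to 5, against 10.02, 10.23 and 10.57 (lowest, median and highest) in Sham. The same 3 values were 10.20, 10.43 and 10.52 in NaCl/HI and 10.59, 10.72 and 10.92 in LPS/HI. LPS and LPS/HI samples all lay above Sham and NaCl/HI, with LPS/HI 3 reaching into the LPS range. Ccnb2, cyclin B2, had 10.84, 10.86, 10.58, 10.90 and 10.68 in LPS, 9.73, 9.89 and 10.23 in Sham, 9.91, 9.96 and 10.09 in NaCl/HI, and 10.25, 10.30 and 10.53 in LPS/HI. For Ccnb2 the LPS/HI samples lay between the other groups without overlap, below every LPS sample and above every Sham and NaCl/HI sample. Both cyclins were 0.86 higher in LPS than in Sham (adjusted p = 2.37e-06 for Ccnb1 and 9.51e-07 for Ccnb2), and the LPS/HI differences from Sham were 0.49 and 0.42 (adjusted p = 0.00297 and 0.00339).

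Foxm1, the transcription factor that activates late cell cycle genes, had 10.10, 10.18, 10.17, 10.59 and 10.31 in LPS 1 to 5. It had 9.46, 9.48 and 9.72 (lowest, median and highest) in Sham, 9.50, 9.72 and 9.90 in NaCl/HI and 9.81, 9.97 and 10.14 in LPS/HI. Both LPS groups lay above all Sham samples, while LPS/HI overlapped NaCl/HI and LPS. Foxm1 was 0.73 higher in LPS (adjusted p = 4.4e-06) and 0.42 higher in LPS/HI (adjusted p = 0.00467) than in Sham. Plk1, the Polo-like kinase of mitotic entry and spindle function, had 10.64, 10.65, 10.43, 10.89 and 10.47 in LPS. Its values were 9.58, 9.73 and 9.996 in Sham, 9.74, 9.95 and 10.09 in NaCl/HI and 10.09, 10.18 and 10.40 in LPS/HI. As with Ccnb2, LPS/HI samples of Plk1 were all below LPS and all above Sham and NaCl/HI. Plk1 was 0.88 higher in LPS than in Sham (SE 0.08, adjusted p = 9.51e-07) and 0.47 higher in LPS/HI (SE 0.08, adjusted p = 0.00256). Aurka, the Aurora kinase of the spindle poles, had the smallest difference of all members between LPS and Sham, with 10.87, 10.94, 10.81, 11.13 and 10.97 in LPS and 10.47, 10.59 and 10.80 in Sham. In NaCl/HI it had 10.56, 10.65 and 10.74, and in LPS/HI 10.70, 10.84 and 10.91. The LPS samples of Aurka still lay above all Sham and NaCl/HI samples, with differences of 0.35 from Sham and 0.30 from NaCl/HI (adjusted p = 0.000364 and 0.00298). The remaining kinases Melk and Pbk were 0.64 and 0.41 higher in LPS than in Sham.

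**Figure D3:**
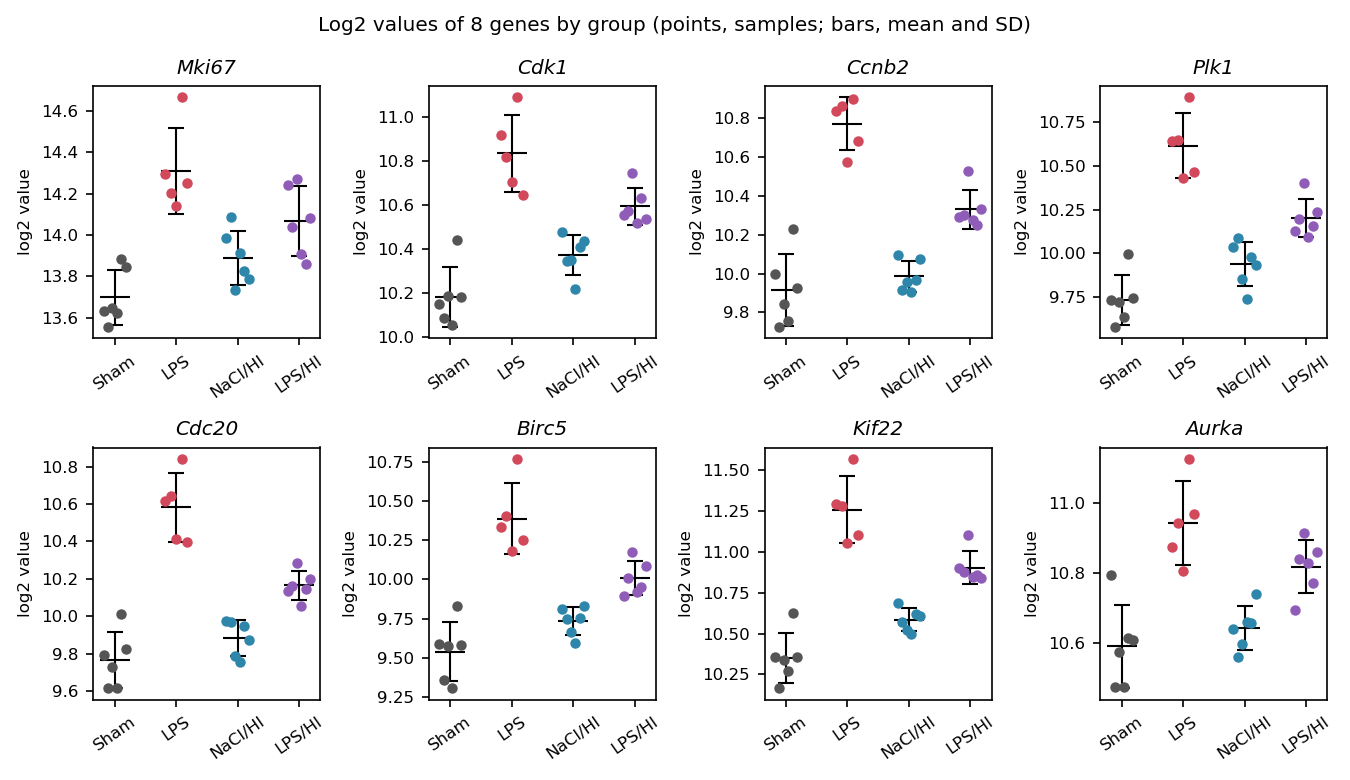
Log2 value (y axis, scaled to each gene and not starting at 0) of 8 members by group (x axis), each point 1 sample, with bars for the mean and SD (n = 6, and n = 5 in LPS). In Ccnb2, Plk1, Cdc20 and Birc5 the LPS/HI points lie below all LPS points and above all Sham points. In Mki67, Cdk1, Kif22 and Aurka the LPS and LPS/HI points overlap.

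The 2 partners of the anaphase-promoting complex, the ubiquitin ligase that ends mitosis, were among the members that changed most. Cdc20, its activator and the target of the checkpoint, had 10.62, 10.64, 10.41, 10.84 and 10.40 in LPS 1 to 5. It had 9.62, 9.76 and 10.01 (lowest, median and highest) in Sham, 9.75, 9.91 and 9.98 in NaCl/HI, and 10.06, 10.15 and 10.29 in LPS/HI. LPS/HI was again separate from all 3 other groups. Cdc20 was 0.82 higher in LPS than in Sham (adjusted p = 9.51e-07) and 0.40 higher in LPS/HI (adjusted p = 0.00441). Ube2c, the conjugating enzyme of the same ligase, had 9.95, 9.97, 9.69, 10.12 and 9.62 in LPS, 8.83, 9.003 and 9.32 in Sham, 8.99, 9.23 and 9.33 in NaCl/HI and 9.32, 9.50 and 9.68 in LPS/HI. Only the LPS samples of Ube2c lay above all Sham and NaCl/HI samples. Its differences from Sham were 0.84 in LPS and 0.47 in LPS/HI (adjusted p = 5.17e-06 and 0.00546).

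In the spindle assembly checkpoint, Bub1b, the kinase-like protein that helps hold back CDC20, had 11.39, 11.38, 11.21, 11.61 and 11.27 in LPS 1 to 5 against 10.44, 10.61 and 10.94 (lowest, median and highest) in Sham. It had 10.79, 10.85 and 11.002 in NaCl/HI and 10.88, 11.08 and 11.26 in LPS/HI. The LPS samples of Bub1b were above all Sham and NaCl/HI samples, and LPS/HI overlapped all 3 other groups. Bub1b was 0.73 higher in LPS and 0.43 higher in LPS/HI than in Sham (adjusted p = 3.65e-06 and 0.00338). Ttk, the kinase that starts the checkpoint signal, had the smallest difference of the class, 0.43 in LPS. At the kinetochore, Ndc80, the subunit that grips microtubules, had 10.46, 10.44, 10.27, 10.66 and 10.39 in LPS, 9.72, 9.82 and 10.14 in Sham, 9.89, 9.96 and 10.03 in NaCl/HI, and 10.07, 10.21 and 10.47 in LPS/HI. Both LPS groups of Ndc80 lay above NaCl/HI, and LPS but not LPS/HI lay above all Sham samples. Ndc80 was 0.59 higher in LPS and 0.39 higher in LPS/HI than in Sham (adjusted p = 3.48e-05 and 0.00601). Spc24, a subunit of the same complex, had 8.46, 8.58, 8.03, 8.54 and 8.25 in LPS, 7.23, 7.501 and 7.67 in Sham, 7.47, 7.82 and 7.90 in NaCl/HI and 7.78, 8.01 and 8.10 in LPS/HI. Its difference from Sham in LPS, 0.89 (SE 0.11, adjusted p = 6.12e-06), was the largest of the kinetochore class, and Spc25 of the same complex had the smallest, 0.48.

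The chromosomal passenger complex corrects faulty attachments and later guides cytokinesis, and its 4 members moved by similar amounts. Aurkb, its kinase, had 10.39, 10.43, 10.23, 10.66 and 10.30 in LPS 1 to 5, 9.60, 9.68 and 9.85 (lowest, median and highest) in Sham, 9.73, 9.92 and 9.95 in NaCl/HI and 10.02, 10.07 and 10.25 in LPS/HI. Birc5, survivin, had 10.33, 10.40, 10.18, 10.77 and 10.25 in LPS, 9.31, 9.58 and 9.83 in Sham, 9.59, 9.75 and 9.83 in NaCl/HI and 9.89, 9.98 and 10.18 in LPS/HI. In both genes LPS and LPS/HI lay above all Sham and NaCl/HI samples, and in Birc5 LPS/HI was also below all LPS samples. Incenp, the scaffold, had 11.75, 11.75, 11.65, 12.06 and 11.67 in LPS, 11.003, 11.08 and 11.25 in Sham, 11.20, 11.29 and 11.44 in NaCl/HI and 11.43, 11.48 and 11.65 in LPS/HI. Both LPS groups of Incenp lay above all Sham samples, and LPS above all NaCl/HI samples. The differences of LPS from Sham were 0.72 in Aurkb, 0.85 in Birc5 and 0.67 in Incenp (adjusted p = 9.51e-07, 3.54e-06 and 1.36e-06), and 0.72 in Cdca8, borealin. The LPS/HI differences from Sham were 0.41, 0.47 and 0.40 for Aurkb, Birc5 and Incenp (adjusted p = 0.00164, 0.00516 and 0.00201).

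Among the 9 kinesin motors, Kif11, which pushes the spindle poles apart, had 11.70, 11.64, 11.50, 11.997 and 11.57 in LPS 1 to 5. It had 10.88, 10.96 and 11.30 (lowest, median and highest) in Sham, 11.08, 11.16 and 11.18 in NaCl/HI and 11.23, 11.31 and 11.56 in LPS/HI. Both LPS groups of Kif11 were above NaCl/HI, but LPS/HI overlapped Sham and LPS. Kif20a, a motor of the central spindle, had 11.08, 11.07, 10.83, 11.36 and 10.80 in LPS, 10.09, 10.24 and 10.44 in Sham, 10.23, 10.40 and 10.51 in NaCl/HI and 10.60, 10.71 and 10.88 in LPS/HI. Kif22, a motor on chromosome arms, had 11.29, 11.28, 11.05, 11.57 and 11.10 in LPS, 10.17, 10.35 and 10.63 in Sham, 10.49, 10.59 and 10.68 in NaCl/HI and 10.84, 10.87 and 11.10 in LPS/HI. Kif20a and Kif22 in both LPS groups exceeded all Sham and NaCl/HI samples. The differences of LPS from Sham were 0.68 in Kif11, 0.79 in Kif20a and 0.90 in Kif22 (adjusted p = 9.7e-06, 1.85e-06 and 8.81e-07), the last a 1.87-fold change and the largest of all members. Kif23, which acts in cytokinesis, had the smallest difference of the motors, 0.46.

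Of the spindle microtubule-binding proteins, Tpx2, the spindle assembly factor that activates Aurora A, had 11.59, 11.63, 11.41, 11.85 and 11.45 in LPS 1 to 5, 10.61, 10.78 and 11.03 (lowest, median and highest) in Sham, 10.91, 10.98 and 11.09 in NaCl/HI and 11.15, 11.22 and 11.42 in LPS/HI. Prc1, which bundles the central spindle, had 11.87, 11.84, 11.74, 12.09 and 11.78 in LPS, 11.08, 11.22 and 11.53 in Sham, 11.28, 11.36 and 11.40 in NaCl/HI and 11.54, 11.64 and 11.78 in LPS/HI. Both genes were above all Sham and NaCl/HI samples in LPS and in LPS/HI. Anln, the actin-binding anillin of the cleavage furrow, had 11.10, 11.04, 10.79, 11.34 and 10.98 in LPS, 10.07, 10.34 and 10.58 in Sham, 10.40, 10.51 and 10.56 in NaCl/HI and 10.60, 10.71 and 10.84 in LPS/HI. Anln showed the same separation of both LPS groups from Sham and NaCl/HI. The differences of LPS from Sham were 0.79 in Tpx2, 0.62 in Prc1 and 0.74 in Anln (adjusted p = 9.51e-07, 4.4e-06 and 4.17e-06).

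The genes of chromosome structure had the smallest class median for LPS against Sham, as given above. Mki67, the antigen of cycling cells that coats mitotic chromosomes, had 14.29, 14.20, 14.14, 14.66 and 14.25 in LPS 1 to 5, 13.56, 13.64 and 13.89 (lowest, median and highest) in Sham, 13.73, 13.87 and 14.09 in NaCl/HI and 13.86, 14.06 and 14.27 in LPS/HI. Top2a, the topoisomerase that untangles sister chromatids, had 13.40, 13.30, 13.16, 13.67 and 13.26 in LPS, 12.51, 12.65 and 12.97 in Sham, 12.75, 12.81 and 12.86 in NaCl/HI and 12.93, 13.01 and 13.30 in LPS/HI. The LPS samples of both genes lay above all Sham and NaCl/HI samples, and LPS/HI lay above NaCl/HI in Top2a only. Smc4, a core subunit of condensin, had 11.78, 11.63, 11.59, 11.98 and 11.62 in LPS, 11.19, 11.27 and 11.62 in Sham, 11.31, 11.35 and 11.53 in NaCl/HI and 11.42, 11.48 and 11.73 in LPS/HI. Smc4 was the only member whose LPS samples overlapped Sham, through the high value of Sham 5. The differences of LPS from Sham were 0.61 in Mki67, 0.69 in Top2a and 0.40 in Smc4 (adjusted p = 0.000148, 9.52e-06 and 0.00194).

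After HI without LPS no member passed the test. None of the 48 was called in NaCl/HI against Sham by limma, where 0.00985% of all genes were called higher and 0% lower, and the exact Wilcoxon test called none of the members and 0 of all genes. All 48 means were higher in NaCl/HI, by 0.05 in Aurka to 0.25 in Spc24 with a median of 0.15, and 20 members had an unadjusted p under 0.05 (18 by the exact Wilcoxon test), against 7.33% of all genes higher at that level. No member had NaCl/HI samples that all lay above Sham, which held for 0.522% of all genes. The adjusted p ran from 0.152 in Melk to 0.702 in Aurka. Without Sham 5, LPS 4 and LPS/HI 3 together, 2 members were called higher and 45 had an unadjusted p under 0.05, with 0.108% of all genes called. Within the first library series 4 were called and within the second 0, with 39 and 0 at an unadjusted p under 0.05 and medians of 0.22 and 0.08. Of all genes 2.34% were called in the first series and 0% in the second. With any 1 library left out, limma called 0 members.

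After LPS followed by HI most members were also above Sham. In LPS/HI against Sham 45 of 48 members were called higher, against 5.3% of all genes called higher and 3.48% called lower, with a median of 0.40. The differences ran from 0.22 in Ttk to 0.55 in Kif22, and Spc24 and Ccnb1 followed with 0.51 and 0.49. The exceptions were Ttk and Smc4 (both 0.22) and Ncapg (0.25), with adjusted p of 0.0735, 0.077 and 0.08. In 24 members all LPS/HI samples lay above all Sham samples, against 3.85% of all genes. Without the 3 libraries named above 47 members and 3.19% of all genes were called. The count was 45 within the first library series and 0 within the second, where the median was 0.28 against 0.52 in the first, while 2.57% of all genes were called in the first and 0% in the second. In the second series 32 members had an unadjusted p under 0.05. The exact Wilcoxon test called 32 members and 9.84% of all genes after adjustment. Of the 45 calls by limma, 43 remained without any single library. Pbk was lost without Sham 1, 2, 4 or 6 or LPS/HI 2, 3, 4 or 5, and Smc2 without Sham 1, 2, 4 or 6 or LPS/HI 3 or 5.

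Within the LPS-treated pups, HI was accompanied by lower values. All 48 means were lower in LPS/HI than in LPS, with a median of -0.29, and 14 members were called lower and 0 higher, against 0.719% of all genes called lower and 1.22% called higher. The largest differences were -0.44 in Ccnb2 (SE 0.08, adjusted p = 0.00883), -0.42 in Cdc20 (SE 0.08, adjusted p = 0.00915) and -0.42 in Plk1 (SE 0.08, adjusted p = 0.015), and the smallest was -0.12 in Pbk and Aurka. The other members called were Ccnb1, Aurkb, Birc5, Cdca8, Incenp, Kif22, Kif2c, Tpx2, Nusap1, Anln and Racgap1. The calls included all 4 members of the chromosomal passenger complex (median -0.30), of which Birc5 and Incenp kept theirs in 12 and 11 of 23 cases with 1 library left out. They included none of the spindle assembly checkpoint, kinetochore and chromosome structure classes, where 4 of 4, 5 of 6 and 6 of 6 members had an unadjusted p under 0.05 and the medians were -0.24, -0.27 and -0.24. A difference between classes was not tested. In Ccnb2, Plk1, Cdc20, Birc5 and Cdca8 all LPS/HI samples lay below all LPS samples, against 1.85% of all genes. At an unadjusted p under 0.05, 44 members were lower, against 6.88% of all genes. The exact Wilcoxon test called 0 members and 0 of all genes after adjustment, and 35 members at an unadjusted p under 0.05, with 0.00433 as the smallest p that 5 against 6 samples allow. Without Sham 5, LPS 4 and LPS/HI 3 together, 11 members and 0.502% of all genes were called. Only Ccnb2 and Cdc20 were called without any single library, and Plk1 lost its call without LPS 4 alone (adjusted p = 0.0683).

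The count of 14 rested on single libraries. It was 24 without Sham 5 or LPS/HI 3 and 27 without LPS 3. It was 7 without LPS 1, 6 without LPS/HI 1 or LPS/HI 6, 4 without LPS/HI 5, 3 without LPS 2, LPS/HI 2 or LPS/HI 4, and 2 without LPS 4. The share of all genes called in these cases is not given here. Within the first library series 0 members were called, with 24 at an unadjusted p under 0.05 and a median of -0.15, and within the second 6 were called, with a median of -0.44. Of all genes 0.00493% were called in the first series and 2.02% in the second. With the members' median as the measure, the direction was the same in both series. With the replicate number as a block in the fit, 2 members and 0.438% of all genes were called.

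Within the HI groups, LPS/HI stood above NaCl/HI in the mean of all 48 members, but 0 were called by limma, against 0.153% of all genes called higher and 0.0493% called lower. The differences ran from 0.13 in Smc2 to 0.35 in Ccnb2 with a median of 0.24. At an unadjusted p under 0.05, 42 members were higher, against 6.47% of all genes, and the exact Wilcoxon test gave the same counts of 0 and 42, with 0 of all genes called. In 27 members all LPS/HI samples lay above all NaCl/HI samples, against 0.901% of all genes. The lowest adjusted p was that of Ccnb2, 0.0606. Without Sham 5 or LPS 4, 2 members were called, and without LPS/HI 1, 1 was called. Without the 3 libraries together 4 members and 0.182% of all genes were called, and within the first and second library series 4 and 0, with 47 and 15 at an unadjusted p under 0.05. Of all genes 0.335% were called in the first series and 0% in the second. A miss of the threshold here does not show that the groups were alike: the 95% interval of Ccnb2 was 0.19 to 0.50 and that of Cdk1 0.07 to 0.37.

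LPS alone also stood above HI alone. All 48 members were called higher in LPS than in NaCl/HI, against 5.32% of all genes called higher and 3.66% called lower, with a median of 0.52. The differences ran from 0.30 in Aurka to 0.79 in Ccnb2, followed by 0.70 in Cdc20 and 0.69 in Ccnb1 (adjusted p = 7.17e-06, 1.43e-05 and 8.2e-05 for these 3 genes). In 47 members all LPS samples lay above all NaCl/HI samples, against 4.79% of all genes, and Pbk was the exception. The exact Wilcoxon test, whose smallest possible p here was 0.00433, called 0 members and 0 of all genes after adjustment, and 48 members at an unadjusted p under 0.05. The calls numbered 47 without the 3 libraries together, where 5.08% of all genes were called, 42 within the first library series and 39 within the second, where 3.9% and 2.32% of all genes were called. Pbk lost its call without LPS 2 or 4 or NaCl/HI 1, 2 or 4, and Smc4 without LPS 4. These comparisons share groups with those above, so they are not independent of them.

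**Figure D4:**
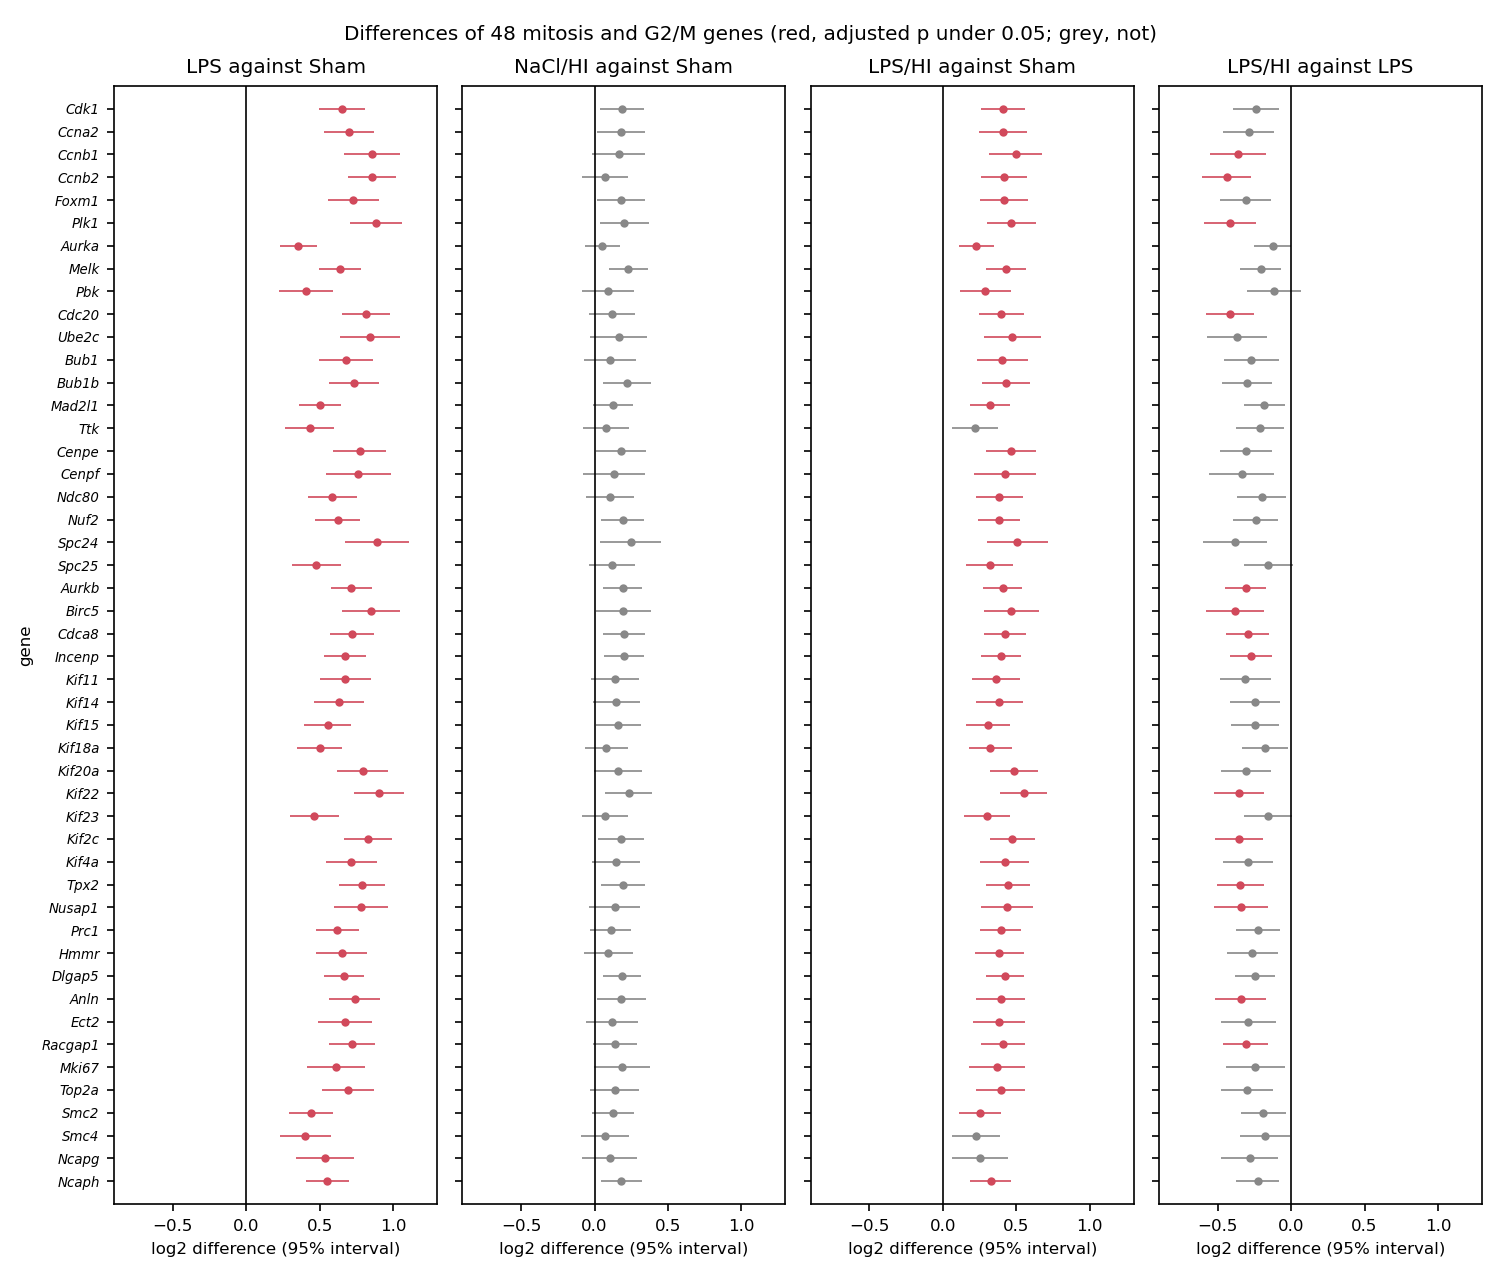
Log2 difference (x axis, points) with its 95% interval from limma (bars) for each of the 48 members (y axis) in 4 comparisons, red where the adjusted p was under 0.05 and grey where it was not. All 48 members are red for LPS against Sham, none in the NaCl/HI panel, 45 for LPS/HI compared with Sham and 14, all below 0, in the panel of LPS/HI and LPS.

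The interaction of LPS with HI was below 0 throughout. This quantity, that is the difference of LPS/HI from NaCl/HI minus that of LPS from Sham, had a median of -0.44 over the 48 members, all below 0. It was called in 24 members, all lower, against 0.719% of all genes called lower and 0.365% called higher, and 47 had an unadjusted p under 0.05, against 7.44% of all genes lower at that level. The largest were -0.63 in Spc24 (SE 0.15, adjusted p = 0.0395), -0.62 in Plk1 (SE 0.12, adjusted p = 0.0188) and -0.59 in Kif22 (SE 0.11, adjusted p = 0.0211), and the smallest was -0.18 in Aurka. All 4 members of the chromosomal passenger complex were called, as were 7 of the 9 members of the class of CDK1 and its partners. Because the groups with HI are hemispheres and the others entire brains, this is also a difference between tissues taken. Without the 3 libraries together 36 members and 0.951% of all genes were called, within the first library series 14 and within the second 0, where 43 had an unadjusted p under 0.05. Of all genes 1.17% were called in the first series and 0% in the second. Without the variance trend 12 members and 0.699% of all genes were called. With the replicate number as a block in the fit, 0 members and 0.00985% of all genes were called.

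Single libraries decided many of the interaction calls, and the share of all genes called in these cases is not given here. The count rose to 35 without Sham 5. It fell to 14 without Sham 3, 13 without Sham 6 or LPS/HI 1, 12 without LPS 1 or NaCl/HI 6, 10 without Sham 1, and 9 without LPS/HI 5 or LPS/HI 6. It fell further to 6 without NaCl/HI 5, 5 without Sham 2, LPS 4 or LPS/HI 2, 4 without Sham 4, NaCl/HI 1, NaCl/HI 2 or LPS/HI 4, and 2 without LPS 2. Plk1 and Aurkb alone were called without any single library, with adjusted p of at most 0.0497 and 0.0437.

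Of 79 other mitosis genes outside the 48, 78 had a higher mean in LPS than in Sham, and 74 were called higher in LPS than in Sham (median 0.47 against 0.68 for the members, a difference that was not tested), led by Pttg1, securin, at 0.96, Cdca3, a trigger of mitotic entry, at 0.85 and Knstrn, a kinetochore partner, at 0.82. In LPS/HI 54 were called higher than in Sham and 16 lower than in LPS (median -0.21), and in LPS against NaCl/HI 62 were higher. Pttg1 was the single gene of this list called in LPS/HI against NaCl/HI, at 0.40 (adjusted p = 0.046). DNA replication and G1/S genes, which act before the members in the cycle, had another pattern. In LPS 35 of 70 were called higher than in Sham (median 0.20), led by the histone chaperone Asf1b (0.67), the activating subunit Dbf4 of the kinase that fires origins (0.50) and the ribonucleotide reductase subunit Rrm1 (0.50). In LPS/HI 24 were called higher than in Sham (median 0.17), and the median in NaCl/HI against Sham was also 0.17, with 0 called and 45 of 70 at an unadjusted p under 0.05. Against LPS, LPS/HI had a median of -0.04 with 0 called and 7 at an unadjusted p under 0.05, and against NaCl/HI a median of -0.01 with 0 called and 4 at an unadjusted p under 0.05. The mean of these 70 genes relative to Sham thus overlapped between LPS, NaCl/HI and LPS/HI, which the mean of the 48 members did not do between LPS and NaCl/HI. The interaction of LPS with HI was below 0 in these lists too, in 78 of the 79 other mitosis genes and 67 of the 70 DNA replication and G1/S genes. Its medians were -0.32 and -0.22, with 20 and 3 genes called lower, against 0.719% of all genes. At an unadjusted p under 0.05 were 69 and 39 genes, 1 of the 39 above 0. A difference between the lists themselves was not tested.

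**Figure D5:**
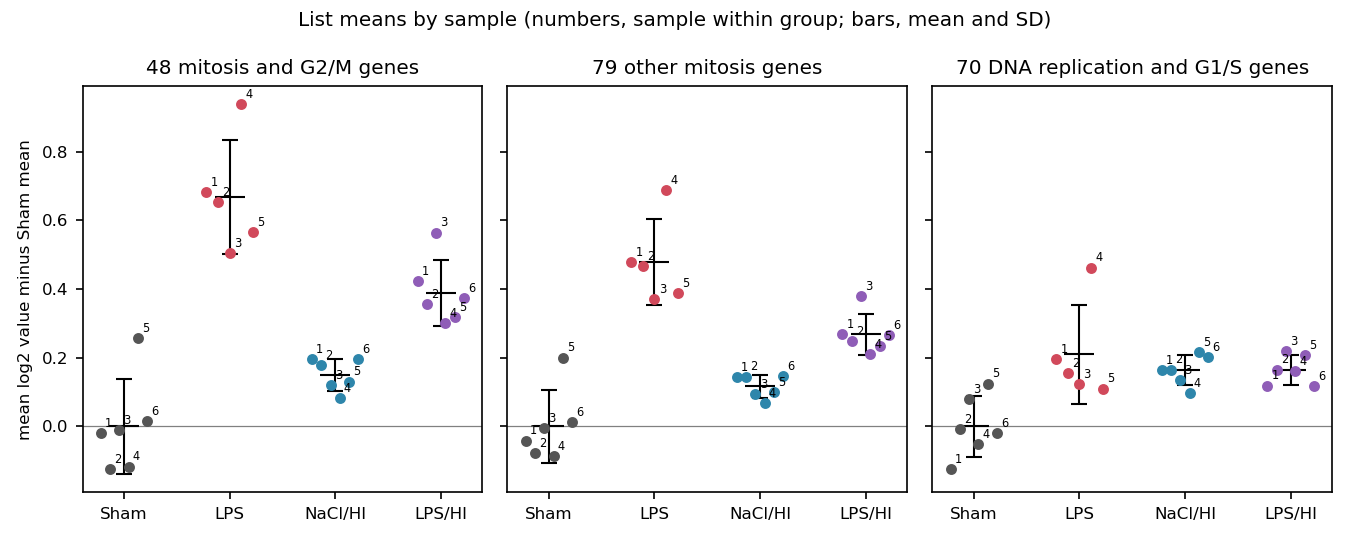
Mean log2 value of a list minus its Sham mean (y axis) in each sample (points, numbered within group) by group (x axis), with bars for the mean and SD, for the 48 members, 79 other mitosis genes and 70 DNA replication and G1/S genes. LPS samples lie above NaCl/HI samples in the first 2 panels and overlap them in the third, where LPS 4 stands highest.

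Of 29 measured inhibitors and regulators of quiescence, 7 were called higher and 1 lower in LPS than in Sham, where 10.2% of all genes were called higher and 7.56% lower, with the inhibitor Cdkn2c of CDK4 and CDK6 at 0.53, Cdkn2a, of the same family, at 0.36. The 1 called lower was Ccnd2, at -0.35, which encodes cyclin D2, a G1 cyclin and no inhibitor. Of 25 mitogenic ligands, receptors and their factors, 7 were called higher and 5 lower against the same shares of all genes, with the transcription factor Cebpb at 0.57, the shared cytokine receptor subunit Csf2rb at 0.51 and Csf1, a growth factor of microglia, at -0.50. In NaCl/HI against Sham 0 genes of either list were called, with 2 and 6 at an unadjusted p under 0.05.

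Markers of other dividing or blood-borne cells were present in the samples, and their part in the differences was not tested. The 6 oligodendrocyte precursor markers had sample means of 9.63 to 9.91 in Sham, 9.73 to 10.11 in LPS, 9.61 to 9.91 in NaCl/HI and 9.70 to 9.99 in LPS/HI, with 0 called by limma in any comparison and 1 at an unadjusted p under 0.05 in LPS against Sham. In LPS 5 of these 6 means were higher than in Sham (median 0.11). Against NaCl/HI 4 were higher and 2 lower in LPS (median 0.20), with 2 at an unadjusted p under 0.05, both higher. The 7 neural progenitor markers had sample means of 7.29 to 7.48 in Sham, 7.35 to 7.51 in LPS, 7.28 to 7.55 in NaCl/HI and 7.36 to 7.66 in LPS/HI, with Hes5 higher and Nes lower in LPS than in Sham (0.47 and -0.45). The 6 endothelial markers ran from 11.19 to 11.48, 11.06 to 11.34, 11.20 to 11.34 and 11.30 to 11.64 in the same order of groups. In LPS 1 was called higher and 3 lower than in Sham, against 10.2% and 7.56% of all genes. All 6 endothelial means were higher in LPS/HI than in LPS, the comparison in which all 48 members were lower, with a median of 0.27, 5 at an unadjusted p under 0.05, and Flt1 (0.31) and Esam (0.38) called. In LPS/HI against NaCl/HI all 6 were higher as well (median 0.15, 0 called and 4 at an unadjusted p under 0.05), and in LPS/HI against Sham 5 of 6 were higher with Pecam1 called (0.17), both in the direction of the members. Their interaction was above 0 in all 6, with a median of 0.35, 5 at an unadjusted p under 0.05, and Flt1 called (0.38). The 9 markers of myeloid precursors and neutrophils ran from 4.72 to 5.02, 4.52 to 4.88, 4.46 to 5.02 and 4.73 to 5.28, with the precursor enzymes Elane and Mpo near the floor of the table at group means of 0.29 to 0.36 and 2.52 to 2.77. Of this list Ngp (-1.07) and Camp (-0.71), both of neutrophil granules, were called lower in LPS than in Sham, and S100a8 (1.11) and S100a9 (1.18) higher in LPS/HI than in Sham. All 9 means were higher in LPS/HI than in LPS, with 0 called by limma, 5 at an unadjusted p under 0.05 and a median of 0.26. The interaction was above 0 in all 9 as well (median 0.25, 0 called and 4 at an unadjusted p under 0.05). The 6 monocyte markers ran from 9.53 to 9.97, 9.76 to 10.04, 9.79 to 10.35 and 9.65 to 10.42, and of these Plac8 alone was called in LPS against Sham, at 1.17. In 3 further comparisons Plac8 was called in the same direction as the members differed, at 0.45 in LPS/HI against Sham, -0.72 in LPS/HI against LPS and 1.26 in LPS against NaCl/HI, and its interaction of -0.63 was not called. Of the other monocyte markers, Fn1 was called lower in LPS than in NaCl/HI, at -0.83. The 6 erythroid markers ran from 6.50 to 7.69, 6.22 to 6.93, 6.24 to 7.23 and 6.53 to 7.54, with 0 called and 3 at an unadjusted p under 0.05 in LPS against Sham. All 6 erythroid means were higher in LPS/HI than in LPS (median 0.25, 0 called and 0 at an unadjusted p under 0.05), and their interaction was above 0 in all 6 (median 0.41, 0 called and 1 at an unadjusted p under 0.05). The 4 T cell markers ran from 4.99 to 5.16, 4.93 to 5.14, 4.96 to 5.24 and 4.87 to 5.12, and of these Lck was called lower in LPS/HI than in Sham, at -0.25. Of the 10 microglia markers, 4 were called lower and 1 higher in LPS than in Sham, with sample means of 12.62 to 12.88 in Sham, 12.52 to 12.68 in LPS, 12.58 to 12.73 in NaCl/HI and 12.60 to 12.78 in LPS/HI. In LPS against Sham 7.56% of all genes were called lower and 10.2% higher. Against NaCl/HI 4 of the 10 were also called lower and 1 higher in LPS, with 3.66% and 5.32% of all genes. In LPS/HI against Sham 1 was called lower, with 3.48% of all genes.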

How the data were processed

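Microglia RNA from 23 samples in 4 groups was sequenced. According to the study's methods and the submitters' processing notes, the authors checked reads with FastQC 0.11.9 and MultiQC 1.14, quantified transcripts with kallisto 0.48.0 on mRatBN7.2, summed them to genes, and left out genes with fewer than 10 counts over all samples. The deposited log2 values are the authors' regularised logarithm from DESeq2, from which 3 surrogate variables had been removed. That transformation shrinks differences of weak genes, and whether the groups entered the removal is not given in the sources used here. Depth is unknown, so no counting error is given, and every per-sample column was used.

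Groups came from the sample labels. A limma 3.58.1 fit (R 4.3.3) with a mean for each of the 4 groups and a variance trend covered all samples and 20301 genes, with 16 residual degrees of freedom, that is 19 less 3 for the removed variables. All 6 differences between groups and the interaction were tested two-sided, with Benjamini-Hochberg adjustment over all genes, and a call needed an adjusted p under 0.05. Intervals are 95% from the same fit. The exact Wilcoxon rank-sum test was also two-sided. Non-overlap means that every sample of 1 group lay above every sample of the other. Summaries and plots used Python 3.11.15, numpy 2.4.6, pandas 2.3.3 and matplotlib 3.10.9. The code was tested on simulated data.

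The members and all gene lists were chosen with earlier results of these data known. Sample values were printed for a set list of members of each role and for the 3 called members with the largest difference in each comparison. From other lists up to 3 called genes with the largest differences per comparison were named, and markers were named beside their list. Promoter windows are RefSeq sequences on GRCr8, matched by gene symbol, and no coordinates were carried between builds. Alternatives covered the degrees of freedom, variance trend, centring, filters, weights, groups fitted, blocks, a fold threshold, another test and leaving out each library.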

Additional observations from a re-analysis of the deposited data

Results flagged for a closer look

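In 25 of 192 sets of values, each 1 member in 1 group, a single sample stood far from the rest of its group by Dixon's criterion, or 13%, where chance gives about 1 in 20. Members share libraries, so these are not independent cases. Sham 5 was the far sample in 14, always the highest. Its distance from the next sample, as a share of the range of the group, was 0.652 in Cdk1, 0.676 in Bub1, 0.659 in Mad2l1, 0.66 in Ttk, 0.675 in Nuf2, 0.725 in Spc25, 0.638 in Kif11, 0.763 in Kif18a, 0.695 in Hmmr, 0.732 in Ect2, 0.672 in Top2a, 0.674 in Smc2, 0.662 in Smc4 and 0.814 in Ncapg. LPS 4 was the far sample in 4, again the highest, with 0.862 in Pbk, 0.74 in Ttk, 0.743 in Incenp and 0.793 in Kif18a. LPS/HI 3 was highest and far out in 6, with 0.691 in Ccnb2, 0.683 in Aurkb, 0.773 in Kif22, 0.629 in Kif2c, 0.641 in Tpx2 and 0.638 in Nusap1. LPS/HI 1 was lowest and far out in Spc24, with 0.625.

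The effect of LPS with HI minus its effect without HI had an adjusted p under 0.05 (limma) in 24 members. Of all genes 0.719% were called lower and 0.365% higher. The count fell to 2 without LPS 2 and to 0 within the second library series, where 0 of all genes were called. With the replicate number as a block it was 0, with 0.00985% of all genes called. On the log2 scale the difference of effects was -0.63 in Spc24, -0.62 in Plk1, -0.59 in Kif22, -0.58 in Birc5, -0.54 in Tpx2 and Cdc20, -0.53 in Kif2c, and -0.52 in Bub1b, Ccnb1 and Anln. It was -0.51 in Ccnb2, -0.50 in Aurkb and Cdca8, -0.49 in Foxm1 and Cenpe, -0.47 in Incenp, Kif20a and Ccna2, and -0.45 in Racgap1. It was -0.44 in Melk, -0.43 in Nuf2, Dlgap5 and Cdk1, and -0.41 in Ncaph.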

How the results depend on the processing

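Every setting kept 45 to 48 calls of LPS against Sham except a required change above 2-fold, which left 0 there and 0 in LPS/HI against Sham, LPS/HI against LPS, LPS against NaCl/HI and the interaction. Few genes met that requirement at all, with 0.069%, 0.0936%, 0.0345%, 0.0591% and 0.00985% of all genes called in the same order. For NaCl/HI against Sham the count of 0 became 7 with array weights, whose estimation stopped before it converged, 2 without Sham 5, LPS 4 and LPS/HI 3, and 4 within the first library series. For LPS/HI against Sham the count of 45 became 0 within the second series, and 32 by the exact Wilcoxon test, which called 9.84% of all genes. For LPS/HI against LPS the count of 14 became 32 with 19 residual degrees of freedom, 8 without the variance trend, 25 with median centring, 47 with array weights, 22 with only these groups fitted, 0 by the exact Wilcoxon test, 0 within the first series and 6 within the second. For LPS/HI against NaCl/HI the count of 0 became 9 with 19 residual degrees of freedom, 36 with array weights, 19 with only these groups, 4 without the 3 libraries and 4 within the first series. The exact Wilcoxon test gave 0 in LPS against NaCl/HI. Where the exact Wilcoxon test or the second series gave 0 members, 0 of all genes were called too. For the interaction the count of 24 became 12 without the trend, 45 with array weights, 14 within the first series and 0 within the second. The share of all genes called moved too. With array weights it was 3.21%, 20%, 14.4% and 10.9% for NaCl/HI against Sham, LPS/HI compared with LPS, LPS/HI compared with NaCl/HI and the interaction, against 0.00985%, 1.94%, 0.202% and 1.08% in the reported fit. For LPS/HI against LPS it was 4.96% with 19 residual degrees of freedom, 1.58% without the trend, 2.97% with median centring and 3.89% with only these groups. For LPS/HI against NaCl/HI it was 1.2% with 19 residual degrees of freedom and 0.665% with only these groups, and for the interaction 0.699% without the trend. Leaving out the 3 libraries and fitting within a library series were chosen after seeing the data, and the cause of these shifts was not tested.

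With 1 library left out, the counts ranged from 48 to 48 for LPS against Sham, 0 to 0 for NaCl/HI against Sham, 43 to 48 for LPS/HI against Sham, 2 to 27 for LPS/HI against LPS, 0 to 2 for LPS/HI against NaCl/HI, 46 to 48 for LPS against NaCl/HI and 2 to 35 for the interaction. Differences of single members reversed in 3 cases, none of them called: Aurka at -0.0154 in NaCl/HI against Sham within the first series, and Cenpf at -0.0339 and Ncapg at -0.00266 within the second.

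The labels do not state that samples with the same replicate number form pairs. Of 33 same-numbered pairs 9 correlated above 0.1 (from -0.475 to 0.47), and 15 of 66 best matches were to the same number. With the replicate block 0 members were called for the interaction in place of 24 and 2 for LPS/HI against LPS in place of 14, and the counts for the other 5 comparisons, in the order above, were 48, 0, 41, 0 and 47. Of all genes the block left 0.00985% called for the interaction and 0.438% for LPS/HI against LPS. For the other 5 comparisons, in the same order as their counts, it left 11.2%, 0.00493%, 3.7%, 0.0394% and 5.33%. Depth is unknown, the groups hold 5 or 6 samples, and tissue and pooling differ with HI.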
